A study of Homo sapiens with 6 samples.

Results

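Collagens and laminins are the structural proteins of the extracellular matrix and the basement membrane. Integrins, each a pair of an alpha and a beta subunit, are the receptors by which cells hold on to that matrix. Matrix metalloproteases (MMPs), ADAMs and ADAMTS proteases cut matrix and cell surface proteins, while TIMPs and many serpins inhibit proteases. In breast cancer cells these families set adhesion, migration and invasion through the basement membrane, which is the general background to reading them side by side.

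The genes described here were chosen by symbol alone, as every listed gene whose name begins as that of a collagen chain, a laminin chain, an integrin subunit, an MMP, an ADAM, an ADAMTS, a TIMP or a serpin of clades A to H. The rule found 63 of the 7150 genes in the authors' deposited table. Of these, 3 matched by name only: ITGB1BP1 and ITGB3BP encode proteins that bind integrin tails, and MMP24OS lies on the strand opposite MMP24. The other 60 are family genes, out of 179 protein-coding genes of these families in the GENCODE 29 annotation.

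The cells were MDA-MB-231, an established human line of triple-negative breast cancer with wild-type genotype by its label. Total RNA was sequenced from 3 untreated control libraries and 3 libraries of cells given shikonin, a plant naphthoquinone, at 0.5 µM for 24 h (the labels write the unit with a lower-case m). The labels do not tie each library to a culture of its own. P-values therefore cover only the spread between these libraries, which may be technical. Every library is of this line. The table holds 0 columns of per-sample values, so values by library cannot be given and depth is unknown. It holds only genes with an adjusted p below 0.05 by the authors' DESeq2 Wald test and a fold above 1.5, which was 50.2% of the 14253 genes that its p-values imply were tested. A gene called "not listed" below missed a threshold or was left untested by the authors, and its level is not known here. Positive values carry the authors' mark for higher genes and are read as higher in shikonin, because the header names no numerator.

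The families split by type. Most listed laminin and integrin genes fell with shikonin, as did the ADAM genes and most ADAMTS genes. Collagens were divided, while most listed MMPs and serpins and both listed TIMPs rose. Of the 60 family genes, 28 were higher and 32 lower in the authors' deposited table (46.7% higher, where 50.8% of all listed genes were higher and 49.2% lower). The median log2 fold change of the 60 was -0.63, against 0.60 over all listed genes. At least 2-fold changes were found for 18 higher and 14 lower family genes, where 32.7% of the whole list passed 2-fold upward and 29.2% downward. By family, the listed genes were 5 higher and 7 lower among collagens, 1 and 4 among laminins, 3 and 8 among integrins, and 7 and 1 among MMPs. They were 0 and 5 among ADAMs, 1 and 5 among ADAMTS genes, 2 and 0 among TIMPs, and 9 and 2 among serpins. These counts are descriptions of the listed genes, not tests of the families. In bulk RNA of a single line, a change in every cell and a change in only part of the cells cannot be told apart. Setting the implied totals of all listed genes equal in both groups lowers every log2 fold change by 0.394. This shift is smaller than the fold threshold that every listed gene passed. No sign could therefore change, and no lower gene could drop out. The split became 19 higher and 32 lower past the fold threshold. The 9 that no longer passed were COL13A1, COL4A6, COL6A2, ITGB4, MMP19, MMP24, MMP9, SERPINA1 and SERPIND1, which left MMPs at 4 higher and 1 lower, serpins at 7 and 2 and collagens at 2 and 7.

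Direction also went with transcript length, as it did over the whole list. Among all listed protein-coding genes, 86.1% were higher in the 5 shortest of 10 equal length classes, 25.5% in classes 6 and 7, and 7.16% in the 3 longest. The family genes were 15 of 18 higher in the 5 shortest classes, 8 of 17 in classes 6 and 7, and 5 of 25 in the 3 longest. Listed MMPs had a median transcript length of 2282 nt and serpins 2619 nt, while collagens stood at 6683 nt and laminins at 9640 nt. The part of length in the split between families was not tested. For some of the genes named below, the share of higher genes in their own length class is given. Where it is not given, the direction of the gene may go with or against that share.

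Upstream sequence is shown for 4 genes that the results turn on. They are MMP10, with the largest rise among family genes whose mean normalized count was at least 100, ITGA2, with the largest fall, TIMP3, the listed TIMP with such a mean, and SERPINH1, the collagen chaperone gene. The stretches lie within 250 bases before the RefSeq start (GRCh38.p14) and stop before the first GENCODE exon, except for SERPINH1, where 30 bases around a motif are shown that lie before the RefSeq start but after the GENCODE start of the gene. Capitals mark a TATA box (TATAAA) in MMP10, GC boxes (GGGCGG or its reverse complement CCGCCC) in TIMP3 and ITGA2, and a heat shock element in SERPINH1.
MMP10, chr11:102780629-102780878, minus strand: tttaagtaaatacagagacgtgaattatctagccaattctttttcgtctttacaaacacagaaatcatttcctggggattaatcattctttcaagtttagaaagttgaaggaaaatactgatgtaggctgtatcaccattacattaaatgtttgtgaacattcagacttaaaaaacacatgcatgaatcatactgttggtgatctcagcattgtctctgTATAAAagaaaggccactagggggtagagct
TIMP3, chr22:32801455-32801700, plus strand: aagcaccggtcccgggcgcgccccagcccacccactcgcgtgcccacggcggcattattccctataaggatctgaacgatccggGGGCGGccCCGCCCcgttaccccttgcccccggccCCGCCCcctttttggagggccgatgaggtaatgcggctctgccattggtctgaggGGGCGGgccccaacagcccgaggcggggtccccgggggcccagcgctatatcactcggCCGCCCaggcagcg
ITGA2, chr5:52989102-52989325, plus strand: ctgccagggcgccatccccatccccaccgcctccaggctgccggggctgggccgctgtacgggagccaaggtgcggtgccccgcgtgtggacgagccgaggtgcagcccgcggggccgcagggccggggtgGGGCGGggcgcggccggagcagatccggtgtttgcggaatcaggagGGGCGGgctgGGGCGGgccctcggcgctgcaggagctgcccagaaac
SERPINH1, chr11:75562168-75562197, plus strand: tttccaactTTCCAGAAGTTTCtcgggacg
A RefSeq window was searched for 41 of the 60 family genes. Searched on both strands, a heat shock element (3 units of GAA and TTC in alternation, each parted by any 2 bases) was found in 0.441% of the 35116 windows on the other chromosomes, called all windows here. It was found in 1 of the 41 family genes, SERPINH1, from 76 to 64 bases before the start. TATAAA was found in 10.7% of all windows and in 6 of the 41 family genes, 4 of them higher and 2 lower: COL13A1, COL6A2, MMP10, SERPINB2, ITGA6 and SERPINB8. In MMP10 it lay from 31 to 26 bases before the start. GGGCGG was found in 42.6% of all windows and in 28 of the 41, with 11 of 18 higher and 17 of 23 lower family genes. The TIMP3 stretch holds 5 of them. The AP-1 motif TGAGTCA was found in 4.2% of all windows and in 2 of the 41, LAMA3 and SERPINB8, both of which were lower, and MMP10 held none in its window. The shares of all windows count windows, while a family gene was counted once if any of its windows matched. The shares and the gene counts are thus unlike measures and were not compared. A match describes the letters only.

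Collagen genes moved both ways: 7 of the 12 listed were lower, a share near that of all listed genes (49.2% lower). COL12A1 encodes a fibril-associated collagen that links fibrils to other matrix, and its implied mean count was 3113 for control and 760 for shikonin. Implied means are normalized counts per group, solved from the authors' mean and fold with equal weight of the 3 and 3 libraries. The log2 fold change of COL12A1 was -2.03 ± 0.21 (SE) in the authors' deposited table, a 4.10-fold fall (95% interval 3.09 to 5.43) with an adjusted p of 2.73e-21 by DESeq2. COL12A1 lies on chromosome 6 from 75084326 to 75206051 (GRCh38) and has a transcript of 11723 nt. COL6A3, the long chain of the beaded filament collagen VI, was 2.47-fold lower (1.79 to 3.42; adjusted p = 1.78e-07, DESeq2), from 1356 to 549, in the authors' deposited table. COL6A2, another chain of the same collagen, went the other way, from 1423 to 2297, a 1.61-fold rise (1.29 to 2.02; adjusted p = 6.57e-05) by the authors' deposited table. With the authors' scaling the 2 listed chains of collagen VI therefore did not move together. With equal implied totals COL6A2 was no longer past the fold threshold, at a log2 value of 0.30. Of all listed protein-coding genes, 32.8% were higher in the length class of COL6A2 and 4.65% in that of COL6A3. COL6A1, the gene of another chain, was not listed.

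The basement membrane collagen gene COL4A1 went from 976 to 523 implied counts. This was a 1.87-fold fall (1.44 to 2.43; adjusted p = 1.07e-05) by the authors' deposited table. Its partner COL4A2, with which it forms the common type IV trimer, was not listed. COL4A1 and COL4A2 overlap at their starts on opposite strands, and the sources used here do not say whether reads were counted by strand. COL4A4, at a mean of 16.2, was lower, and COL4A6, at 54.1, was higher with an adjusted p of 0.0495 in the authors' deposited table. Both belong to the tissue-restricted type IV chains, and the COL4A6 call was the nearest of all family genes to the adjusted p threshold.

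Among fibril-forming collagens, COL5A1, which helps to start fibrils, fell 1.71-fold (1.34 to 2.17; adjusted p = 3.97e-05), from 4982 to 2919, in the authors' deposited table. COL27A1 fell 1.70-fold (1.20 to 2.40) in the same authors' deposited table, from 315 to 185. COL1A1, COL1A2 and COL3A1, the main fibrillar collagens of fibroblasts, were not listed. COL2A1, the cartilage collagen gene, had the highest log2 fold change of all 60, 7.50 ± 1.37 in the authors' deposited table (adjusted p = 1.80e-07), but from an implied control mean of 0.16 to 29.1 counts. No fold is given for COL2A1, since its control level is near 0. COL8A1, of a short-chain collagen, fell 1.54-fold (1.29 to 1.84) in the authors' deposited table and was among the members nearest the fold threshold.

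The collagens that rose with a mean of at least 100 were COL9A2, COL13A1 and COL6A2. COL9A2, a chain of the cartilage collagen IX, rose 2.46-fold (1.74 to 3.49; adjusted p = 1.22e-06), from 123 to 302, in the authors' deposited table. COL13A1, a transmembrane collagen found at adhesion sites, rose 1.79-fold (1.48 to 2.17; adjusted p = 1.01e-08), from 2264 to 4057, in the authors' deposited table. At 2862 and 3187 nt, COL9A2 and COL13A1 have shorter transcripts than the collagens that fell, whose lengths run from 5705 to 11723 nt. In their length class 65.8% of all listed genes were higher.

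Laminin genes fell apart from LAMA2. A laminin is a trimer of an alpha, a beta and a gamma chain, and no beta chain was listed. LAMC1, the gamma chain of most laminins, went from 9233 to 3790 implied counts. This was a 2.44-fold fall (1.91 to 3.10; adjusted p = 3.27e-12) by the authors' deposited table. LAMA3, the alpha chain of the epithelial laminin that anchors hemidesmosomes, fell 1.99-fold (1.45 to 2.71; adjusted p = 4.52e-05), from 1171 to 589, in the authors' deposited table. The beta chain genes LAMB1, LAMB2, LAMB3 and LAMB4 were not listed.

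LAMA5, the alpha chain of a widespread basement membrane laminin, fell 1.64-fold (1.33 to 2.02; adjusted p = 1.33e-05), from 8994 to 5497, in the authors' deposited table. Its gene overlaps ADRM1 on the opposite strand, which was higher, with a log2 value of 0.88 in the authors' deposited table. LAMA2, the alpha chain of muscle and nerve basement membranes, rose 6.55-fold (4.02 to 10.7; adjusted p = 3.26e-13), from 20.4 to 133, in the authors' deposited table. Its transcript of 9640 nt lies in the longest class, in which 4.65% of all listed genes were higher.

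Integrin alpha subunit genes mostly fell, in each class by ligand that had a listed gene with a mean of at least 100, except the leukocyte integrins. Among the collagen receptors, ITGA2 had the largest fall of all 60 family genes, from 10865 to 1671 implied counts. Its log2 fold change was -2.70 ± 0.16 in the authors' deposited table, a 6.50-fold fall (5.23 to 8.08) with an adjusted p of 3.98e-61. ITGA2 lies on chromosome 5 from 52989326 to 53094779, on the plus strand just after the upstream stretch printed above. ITGA1, the other listed collagen receptor subunit, lies within 307 kb of ITGA2 and fell 1.89-fold (1.46 to 2.43; adjusted p = 3.04e-06), from 1173 to 622, in the authors' deposited table. Both pair with ITGB1, which was not listed.

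Of the laminin receptor subunits, ITGA6 fell 2.39-fold (1.97 to 2.90; adjusted p = 1.60e-17), from 10619 to 4448, in the authors' deposited table. ITGA3 fell 1.74-fold (1.45 to 2.09; adjusted p = 1.83e-08), from 38784 to 22298, in the authors' deposited table. ITGB4, the hemidesmosomal partner of ITGA6, moved against it: it rose 1.59-fold (1.25 to 2.02; adjusted p = 4.19e-04), from 2189 to 3477, in the authors' deposited table. ITGB4 was past the fold threshold with the authors' scaling but not with equal implied totals, and it overlaps GALK1 on the opposite strand, with a log2 value of 1.02 in the authors' deposited table. ITGA7, a muscle laminin receptor subunit, was higher at a mean of 42.3 in the authors' deposited table.

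ITGAV and ITGA5 bind proteins with an RGD motif, such as vitronectin and fibronectin. ITGAV fell 3.24-fold (2.58 to 4.07; adjusted p = 1.33e-22), from 2823 to 872, in the authors' deposited table. ITGB3, a partner of ITGAV in the vitronectin receptor, fell 1.96-fold (1.33 to 2.90; adjusted p = 0.00165), from 182 to 92.8, in the authors' deposited table. The other beta partners of ITGAV, namely ITGB1, ITGB5, ITGB6 and ITGB8, were not listed. ITGA5, the fibronectin receptor subunit, fell 1.89-fold (1.55 to 2.29; adjusted p = 9.72e-10), from 7612 to 4034, in the authors' deposited table.

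Of the leukocyte integrin subunits, ITGAE, which with ITGB7 binds E-cadherin, rose 2.86-fold (2.23 to 3.68; adjusted p = 2.63e-15), from 269 to 770, in the authors' deposited table. ITGB7 was not listed. ITGB2 fell 1.53-fold (1.23 to 1.91; adjusted p = 4.03e-04), from 901 to 589, in the authors' deposited table, the smallest change of all family genes. Its alpha partners ITGAL, ITGAM and ITGAX were not listed. In the length class of ITGB2, 65.8% of all listed genes were higher, so its fall went against the length pattern, while ITGAE rose in a class with 32.8% higher.

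**Figure D1:**
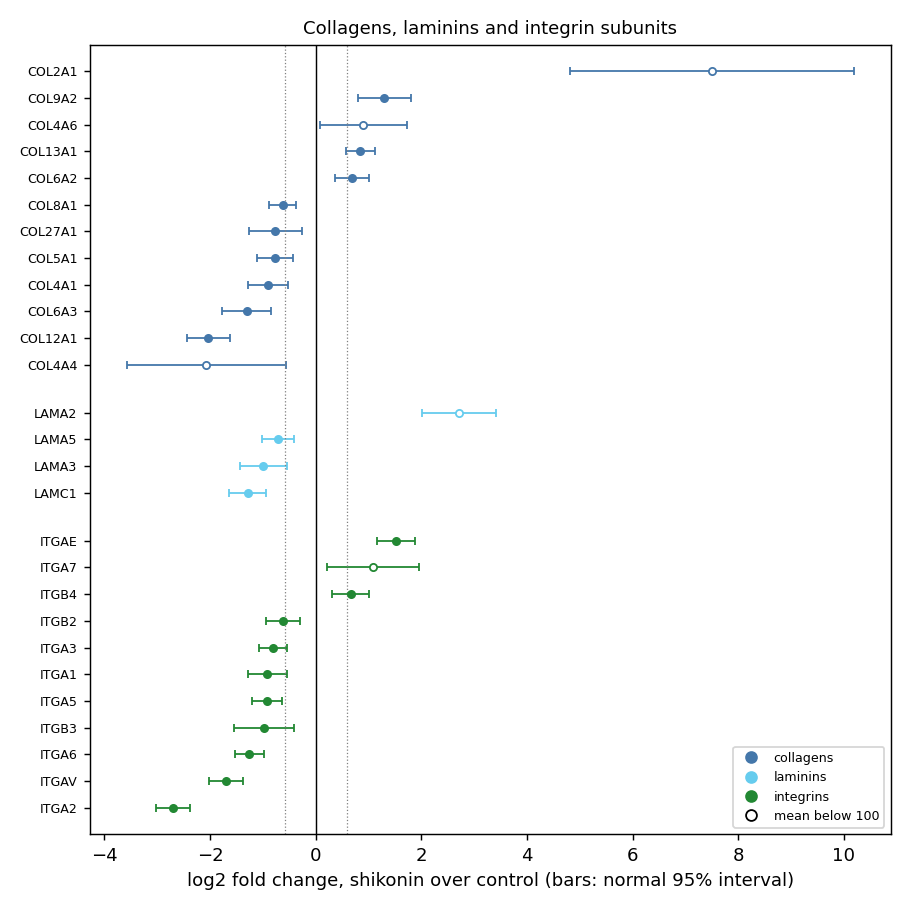
Log2 fold change (shikonin over control) of the listed collagen, laminin and integrin genes reported here, with bars for the normal 95% interval from the authors' standard error and dotted lines at the 1.5-fold threshold. Open points have a mean below 100 normalized counts. ITGA2 at -2.70 is the lowest point, and COL2A1 at 7.50 the highest, with the widest bar.

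Of 8 listed MMPs, 7 rose with the authors' scaling, and 4 of them stayed past the fold threshold with equal implied totals. MMP10 (stromelysin-2) and MMP3 (stromelysin-1) are secreted enzymes that cut proteoglycans, laminin and fibronectin and can activate other MMPs. MMP10 went from 25.3 to 372 implied counts. Its log2 fold change was 3.88 ± 0.35 in the authors' deposited table, a 14.7-fold rise (9.10 to 23.7; adjusted p = 1.38e-26). MMP3 rose 10.2-fold (6.37 to 16.2; adjusted p = 4.22e-21), from 39.8 to 404, in the authors' deposited table. The median log2 fold change of all listed protein-coding genes was 1.01 in the length class of MMP10 and 0.95 in that of MMP3. Both genes were named for the size of their rise, so their place above these medians is not a test of the part of length.

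MMP10 (102770503 to 102780628), MMP3 (102835801 to 102843803) and MMP13 (102942995 to 102955734) lie within 185 kb on chromosome 11, all on the minus strand. MMP13, a collagenase, was also higher, but at a mean of 9.64 and an adjusted p of 0.0433 in the authors' deposited table. The other genes of that cluster, MMP1, MMP7, MMP8, MMP12, MMP20 and MMP27, were not listed. The 3 listed genes of the cluster therefore all rose, at low to moderate counts. Most listed genes of their length classes were higher too: 90.8% for MMP10, 82.2% for MMP3 and 94.9% for MMP13.

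MMP9, a gelatinase that cuts type IV collagen, rose 1.88-fold (1.48 to 2.38; adjusted p = 7.37e-07), from 310 to 582, in the authors' deposited table. MMP19 rose 1.77-fold (1.13 to 2.78; adjusted p = 0.0215), from 73.0 to 130, in the authors' deposited table. Neither was past the fold threshold with equal implied totals. MMP24 and MMP25, membrane-anchored enzymes, were higher at means of 85.8 and 18.0 in the authors' deposited table. MMP24 and MMP24OS overlap on opposite strands and both were higher. MMP15, also membrane-anchored, fell 1.89-fold (1.46 to 2.45; adjusted p = 5.03e-06), from 683 to 362, in the authors' deposited table. MMP2, the other gelatinase, and MMP14, a membrane-anchored activator of MMP2, were not listed.

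ADAM genes moved the other way: all 5 that were listed fell. ADAMs are membrane proteases that release the outer part of surface proteins. ADAM19 went from 2404 to 793 implied counts, a 3.03-fold fall (2.33 to 3.94; adjusted p = 1.31e-15) by the authors' deposited table. ADAM17, the sheddase of TNF and EGF receptor ligands, fell 2.13-fold (1.71 to 2.65; adjusted p = 1.10e-10), from 1572 to 738, in the authors' deposited table. ADAM10, a sheddase of Notch and cadherins, fell 2.00-fold (1.64 to 2.44; adjusted p = 8.04e-11), from 2897 to 1449, in the authors' deposited table. ADAM9, a further active protease, fell 1.79-fold (1.45 to 2.22; adjusted p = 3.50e-07), from 3982 to 2224, in the authors' deposited table. ADAM22, which lacks protease activity, was lower at a mean of 73.8 in the authors' deposited table.

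Transcript length differed among the ADAMs. ADAM10, at 11431 nt, lies in the longest class, with 4.65% higher genes, whereas ADAM19, at 3312 nt, lies in a class with 32.8%, and ADAM22, at 2891 nt, in one with 65.8%. These lengths are of the transcript with the longest coding sequence. The principal transcript is longer for both, at 6481 nt for ADAM19 and 9144 nt for ADAM22. ADAM17 overlaps IAH1 on the opposite strand, with a log2 value of 1.17, and ADAM19 overlaps CYFIP2, at -0.60, in the authors' deposited table. IAH1 moved opposite to ADAM17.

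ADAMTS proteases are secreted and act on proteoglycans and procollagen. All 6 listed genes changed at least 2-fold, with 5 lower and ADAMTS1 higher. ADAMTS1, which cuts aggrecan and versican, went from 270 to 2046 implied counts. Its log2 fold change was 2.92 ± 0.21 in the authors' deposited table, a rise of 7.58-fold (5.67 to 10.1; adjusted p = 1.31e-40). It lies on chromosome 21 from 26835747 to 26845409 and has a transcript of 5191 nt, in a class in which 10.4% of all listed genes were higher. ADAMTS15 and ADAMTS9, which also act on these proteoglycans, fell. ADAMTS15 went from 1657 to 354, a 4.68-fold fall (3.73 to 5.89; adjusted p = 4.30e-38) by the authors' deposited table. ADAMTS9 fell 2.72-fold (2.10 to 3.51; adjusted p = 2.08e-13), from 1297 to 477, in the authors' deposited table. The proteoglycan-cutting members thus moved in both directions, with intervals of the fold that lay wholly beyond 2-fold on each side.

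ADAMTS12, which cuts a cartilage matrix protein, fell 2.53-fold (2.07 to 3.09; adjusted p = 9.10e-19), from 1460 to 577, in the authors' deposited table. ADAMTS14, a procollagen N-propeptidase, was lower at 114 mean counts (adjusted p = 0.00346), and ADAMTS17 was lower at 50.6, in the authors' deposited table. ADAMTS4 and ADAMTS5, the main aggrecanases of cartilage, were not listed.

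Protease inhibitor genes rose for the most part. TIMP3 encodes a matrix-bound inhibitor of MMPs, ADAM17 and ADAMTS enzymes, and went from 4799 to 12550 implied counts. Its log2 fold change was 1.39 ± 0.15 in the authors' deposited table, a 2.62-fold rise (2.13 to 3.20; adjusted p = 2.73e-19). TIMP3 lies on chromosome 22 from 32801701 to 32863043, and its transcript of 4603 nt falls in a class with 18.1% higher genes. TIMP4 rose by 1.52 ± 0.47 on the log2 scale in the authors' deposited table (adjusted p = 0.00283), from 20.8 to 59.4. TIMP1 and TIMP2 were not listed.

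Serpins trap proteases by a change of shape, but SERPINH1 is no inhibitor: it encodes HSP47, a chaperone of procollagen in the endoplasmic reticulum. SERPINH1 went from 5232 to 14998 implied counts. Its log2 fold change was 1.52 ± 0.17 in the authors' deposited table, a 2.87-fold rise (2.27 to 3.62; adjusted p = 1.18e-17). By GENCODE the gene lies on chromosome 11 from 75562056 to 75572783, on the plus strand. The heat shock element printed above lies before the RefSeq start but inside this GENCODE span, in which some transcripts start earlier. It rose, while the listed collagen genes moved both ways.

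Among the intracellular clade B serpins, SERPINB6 rose 2.20-fold (1.78 to 2.71; adjusted p = 1.06e-12), from 1860 to 4092, in the authors' deposited table. SERPINB1, an inhibitor of neutrophil elastase, rose 2.14-fold (1.75 to 2.61; adjusted p = 6.89e-13), from 2097 to 4481, in the authors' deposited table. SERPINB1 and SERPINB6 lie within 140 kb on chromosome 6. SERPINB2, an inhibitor of plasminogen activators, rose 2.00-fold (1.28 to 3.11; adjusted p = 0.00450), from 121 to 241, in the authors' deposited table. SERPINB8 fell 1.78-fold (1.38 to 2.30; adjusted p = 2.36e-05), from 717 to 402, in the authors' deposited table. The gene lies within 148 kb of SERPINB2 on chromosome 18, so this pair of neighbours split, and it overlaps HMSD on the same strand, with a log2 value of 2.17 in the authors' deposited table.

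Plasma serpins of clades A, C and D all rose where listed. SERPINA3, antichymotrypsin, rose 2.46-fold (1.73 to 3.49; adjusted p = 1.62e-06), from 86.6 to 213, in the authors' deposited table. SERPINA1, antitrypsin, rose 1.94-fold (1.62 to 2.33; adjusted p = 3.38e-12), from 2413 to 4688, in the authors' deposited table. SERPINA1, SERPINA5 and SERPINA3 lie within 247 kb on chromosome 14, and all 3 were higher. In their length classes 32.8%, 82.2% and 65.8% of all listed genes were higher, in that order. SERPIND1, heparin cofactor, rose 1.94-fold (1.41 to 2.65; adjusted p = 9.78e-05) by the authors' deposited table and overlaps PI4KA on the opposite strand, which was lower at -1.03 there. SERPINC1, antithrombin, and SERPINA5 were higher at means of 9.86 and 26.1 in the authors' deposited table.

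**Figure D2:**
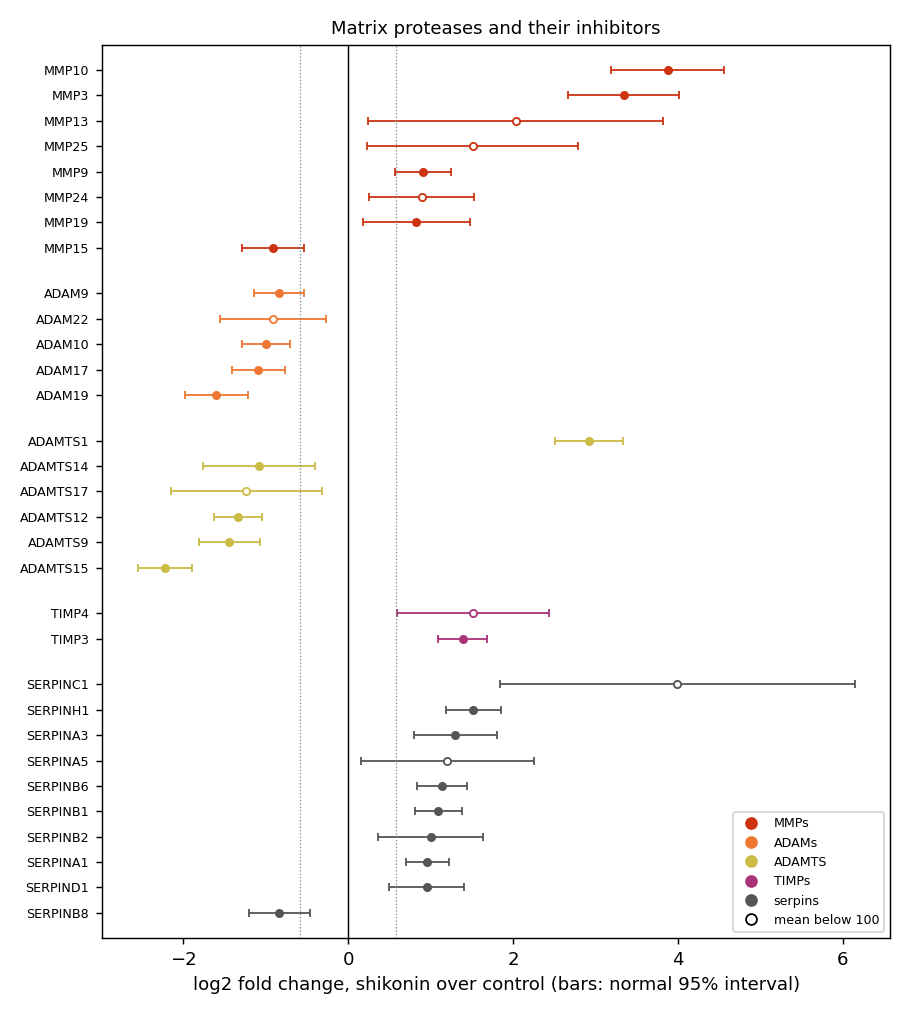
Log2 fold change (shikonin over control) of the listed MMP, ADAM, ADAMTS, TIMP and serpin genes reported here, with bars for the normal 95% interval from the authors' standard error and dotted lines at the 1.5-fold threshold. Open points have a mean below 100 normalized counts. All 5 ADAM genes lie left of 0, while 7 of 8 MMPs, both TIMPs and 9 serpins lie right of it.

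**Figure D3:**
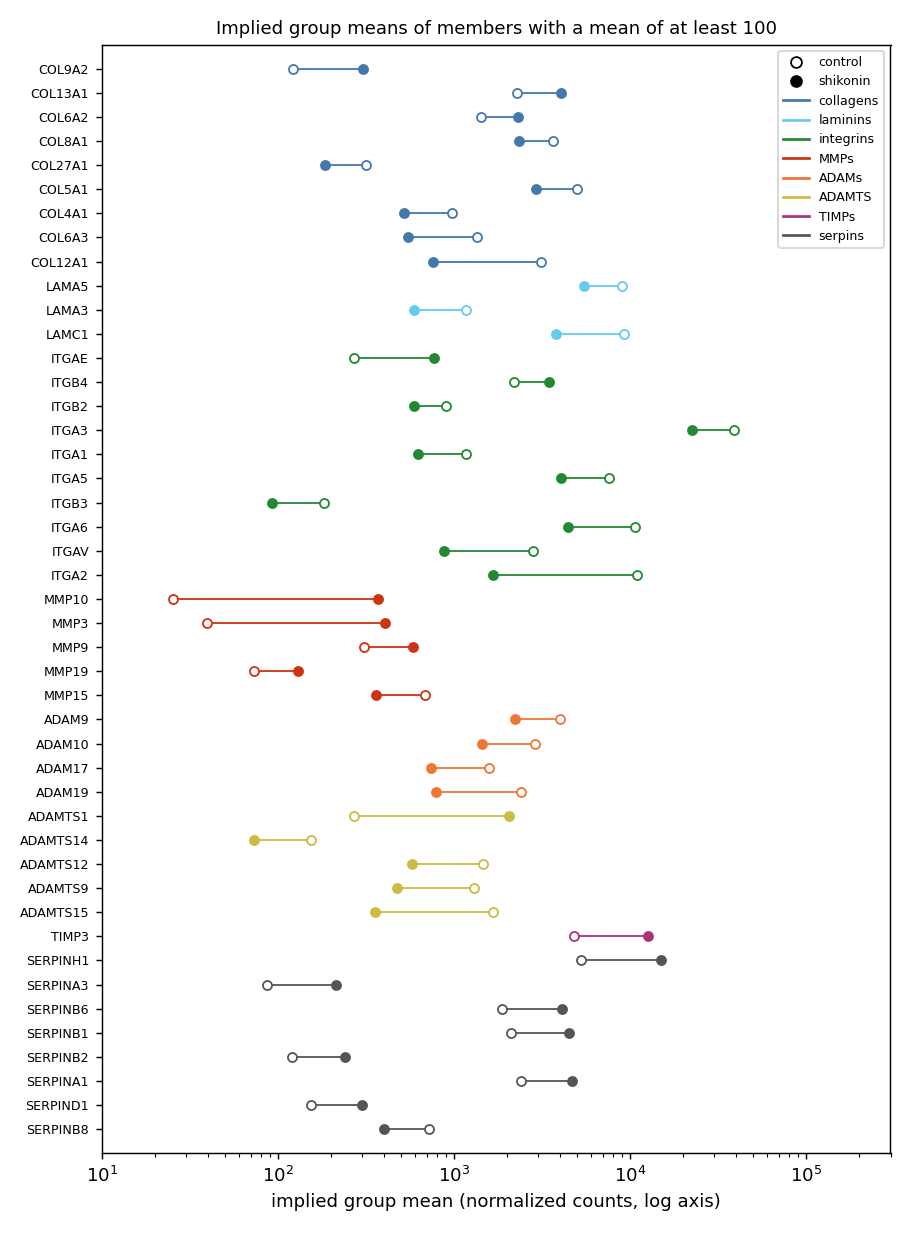
Implied group means in normalized counts (log axis) of the family genes reported here with a mean of at least 100, with open points for control and filled points for shikonin. Lines join the groups of each gene, and their length on this axis is the fold. MMP10 moves from 25.3 to 372 and ITGA2 from 10865 to 1671. The counts are not divided by transcript length, so levels are not compared between genes.

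Within the families, Spearman's rho between transcript length and log2 fold change was -0.60 over the 60 genes, and -0.70 over 6890 listed protein-coding genes. This is a correlation across genes of the same libraries, which are not independent replicates. The higher family genes had a median transcript length of 3024.5 nt and the lower ones 5956 nt. The 5 long genes that rose were COL2A1, COL4A6, LAMA2, ITGB4 and ADAMTS1, and ITGB2 and ADAM22 were short genes that fell. ADAM22 is short only by the transcript with the longest coding sequence, since its principal transcript has 9144 nt. In length classes 6 and 7, COL6A2, ITGAE, ITGA7, MMP25, MMP24, TIMP3, SERPINH1 and SERPINA1 rose.

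**Figure D4:**
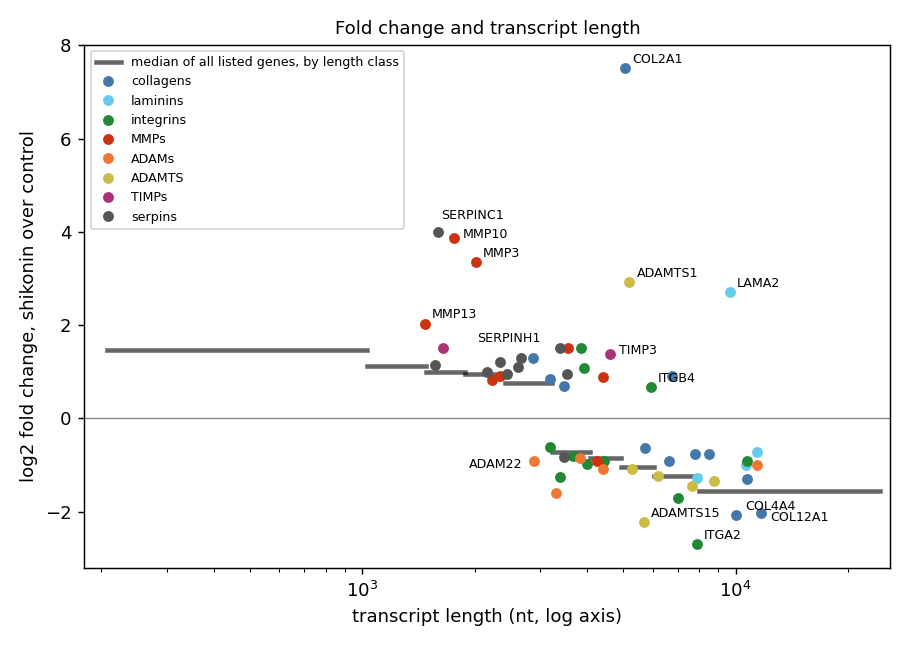
Log2 fold change (shikonin over control) against transcript length in nt (log axis) for the family genes reported here, coloured by family, with horizontal lines for the median of all listed protein-coding genes in each length class. Family genes lie on both sides of the lines, and their distance from the lines was not tested. Of all family genes, 5 of 25 in the 3 longest classes and 8 of 17 in classes 6 and 7 were higher, against negative medians. In the 5 shortest classes, 3 of 18 were lower, against positive medians. ADAMTS1, LAMA2 and COL2A1 lie far above the lines at their lengths, and ITGA2 and ADAMTS15 below.

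Genes that work with these families were read from 4 further lists, with counts by the authors' scaling and then by equal implied totals. Over all genes, 50.2% of those tested were listed, and of all listed genes 50.8% were higher and 49.2% lower. The lists count annotated genes, tested or not, so their listed shares are a different measure from the 50.2%. The lists are described and were not tested. Of 26 genes of collagen folding, modification and crosslinking, 10 were listed, 6 higher and 4 lower, with a median log2 fold change of 1.13 (6 and 4 with equal totals). PCOLCE, an enhancer of procollagen processing, and LOXL4, a crosslinking oxidase, rose 3.04-fold (1.98 to 4.67) and 2.30-fold (1.94 to 2.72) in the authors' deposited table. P3H4, part of a collagen hydroxylation complex, and MIA3, which exports procollagen from the endoplasmic reticulum, fell 2.21-fold (1.59 to 3.07) and 2.14-fold (1.63 to 2.79) there. The collagen lysyl hydroxylase gene PLOD2 was also lower, at -0.95 ± 0.14 in the authors' deposited table. The list thus held changes both ways around SERPINH1.

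Of 41 other matrix proteins, 14 were listed, 6 higher and 8 lower, with a median of -0.77 (3 and 8 with equal totals). FBN1, the microfibril protein fibrillin-1, fell 5.41-fold (4.01 to 7.30), and SDC3, a cell surface proteoglycan, fell 2.24-fold (1.79 to 2.81) in the authors' deposited table. FN1, the fibronectin ligand of ITGA5, fell 1.80-fold (1.34 to 2.43) in the authors' deposited table. ECM1 and EFEMP1, secreted matrix proteins, rose 1.78-fold (1.49 to 2.13) and 1.55-fold (1.30 to 1.83) in the authors' deposited table.

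Integrin adaptors mostly fell with the integrins. Of 36 integrin adaptor and focal adhesion genes, 25 were listed, 7 higher and 18 lower, where 49.2% of all listed genes were lower. Their median was -0.90 (2 and 18 with equal totals), and the 18 lower genes had a median transcript of 5214 nt. BCAR1, the scaffold p130Cas, and FERMT1, a kindlin that activates integrins, fell 3.14-fold (2.51 to 3.93) and 2.89-fold (2.09 to 4.01) in the authors' deposited table. TLN1, the talin that links integrin tails to actin, and PTK2, focal adhesion kinase, fell 2.38-fold (1.91 to 2.95) and 1.93-fold (1.59 to 2.34) in the authors' deposited table. NEDD9, a relative of BCAR1, and LIMS2, a partner of integrin-linked kinase, rose 3.48-fold (2.72 to 4.45) and 2.87-fold (2.10 to 3.92) there. The naming of TLN1, PTK2, FN1 and PLOD2 came after their values had been seen.

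Of 26 genes of the plasminogen system and other pericellular proteases, 11 were listed, 9 higher and 2 lower, with a median of 0.82. Of all listed genes 50.8% were higher. With equal implied totals 4 were higher and 2 lower past the fold threshold, with a median of 0.43. CST3, the cathepsin inhibitor cystatin C, and SPINT2, a membrane inhibitor of serine proteases, rose 2.57-fold (2.09 to 3.16) and 2.35-fold (1.90 to 2.92) in the authors' deposited table. FURIN, which activates membrane-type MMPs and ADAMs, fell 2.02-fold (1.67 to 2.44), and PCSK7, a related convertase, fell 1.52-fold (1.25 to 1.85) in the authors' deposited table. PLAU and PLAUR, the urokinase and its receptor, were not listed.

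**Figure D5:**
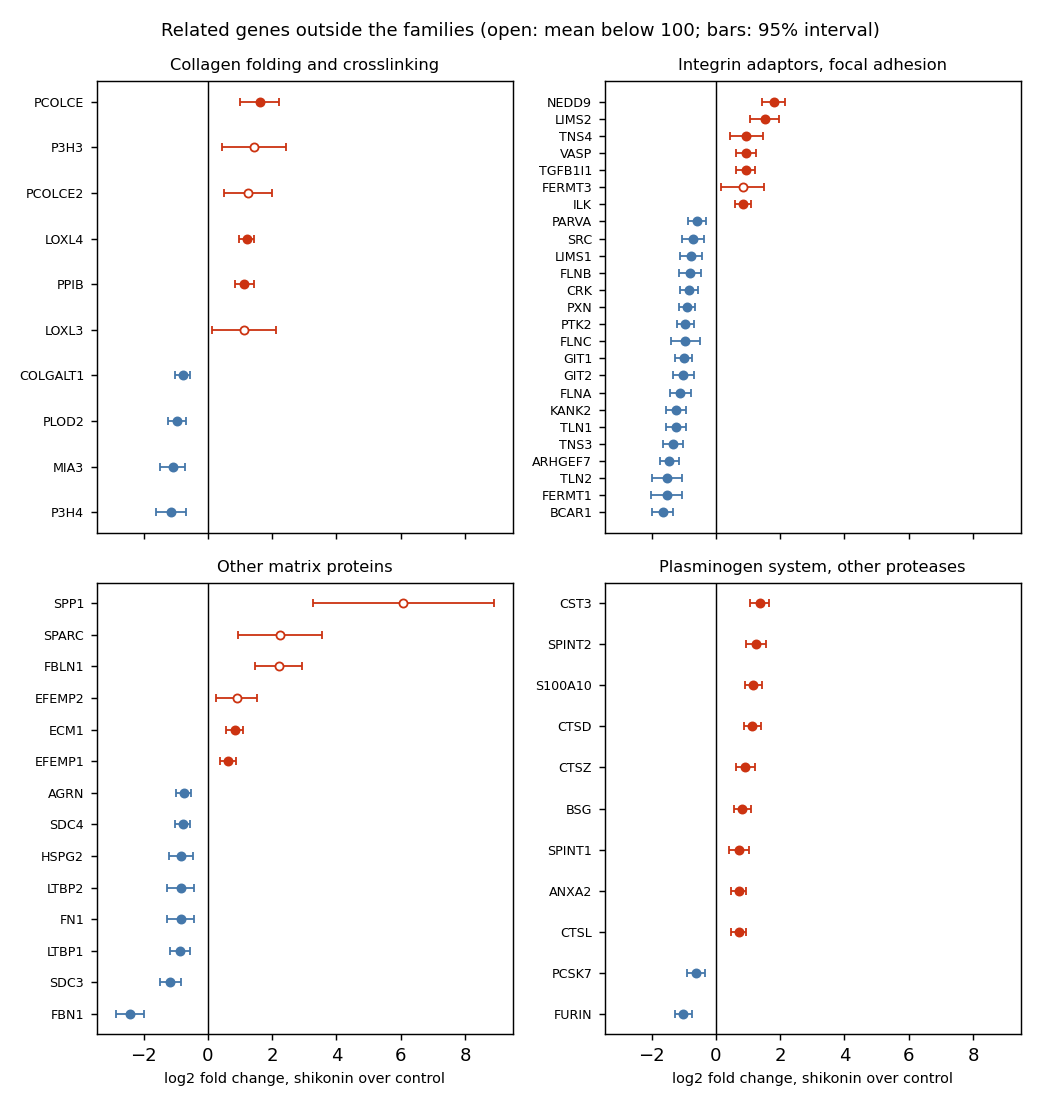
Log2 fold change (shikonin over control) of listed genes in the 4 related lists, with bars for the normal 95% interval, red points higher and blue points lower, and open points for a mean below 100. Of 25 focal adhesion genes 18 lie left of 0, and of 11 plasminogen system and protease genes 9 lie right of it.

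Of 14 marker genes of the line, 9 were listed, 7 higher and 2 lower, with VIM, among the higher, at a mean of 64429 in the authors' deposited table. The 2 lower were EGFR, which fell 5.96-fold (4.73 to 7.52), and ZEB1, which fell 1.69-fold (1.26 to 2.25), in the authors' deposited table. Markers of other cell types that carry these families were listed in part. Of 10 fibroblast markers, 2 were listed (PDGFRB and ACTA2), with a summed implied mean from 123 to 279 counts, while COL1A1, COL1A2, DCN and the rest were not. Of 11 leukocyte markers, 4 were listed (CD14, CD68, LYZ and ITGB2), with sums from 4026 to 6728, and PTPRC and CD3E were not listed. Of 6 endothelial markers PECAM1 was listed, from 69.3 to 284. The listed markers of other cell types rose apart from ITGB2, which is also a family gene. With equal implied totals, CD68 and PDGFRB were no longer past the fold threshold. Every library is labelled as MDA-MB-231, so these values do not show that another cell type was present. The part of these markers in the results on the integrins and serpins was not tested.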

How the data were processed

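RNA sequencing of 3 control and 3 shikonin libraries was analysed from 1 deposited table. The tools fastp, DESeq2, HISAT2 2.0.5 and the hg38 build are named in the submitters' processing notes. For the read counter, annotation and strand setting the sources used here give nothing. Per the file headers, the authors deposited a mean signal (normalized count over all libraries), a log2 fold change with its standard error, a Wald score and a p-value with its adjusted form, for listed genes only. The p-values and intervals are the authors' or follow from their standard errors, and no new test was run, since planned fits need per-sample values.

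Computed here were normal 95% intervals, implied group means (equal weight of both groups), the number of genes tested (from adjusted p and rank), and counts by family. GENCODE 29 gave positions and the length of the transcript with the longest coding sequence, with 6890 listed protein-coding genes in 10 classes. Motifs were searched in RefSeq promoter windows outside chromosome 8 (so ADAM9, which lies on it, was left out), with Python 3.11.15, pandas 2.3.3 and SciPy 1.17.1. On simulated data only the implied control means and the number of genes tested were checked, the means on data built by the same formula. The counts by family, length class and motif were not checked in that way. Depth per library is unknown.

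The genes and lists were chosen with earlier results of these data known. Full values are given, per family, for up to 3 higher and 3 lower genes by size of change at a mean of at least 100, for TIMPs and for partner chains, and some further members were added. From each related list the 2 highest and 2 lowest with such a mean are named. Values of some members are not reported here, in the text or the plots, though they count in the totals.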

Additional observations from a re-analysis of the deposited data

How the results depend on the processing

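Alternatives were equal implied totals, an adjusted p below 0.001, a mean of at least 100, implied means of at least 10, a 95% interval wholly beyond 1.5-fold, a pseudocount of 1 and other measures of length. With equal implied totals, 11 family genes were at least 2-fold higher and 32 lower, against 18 and 14. In that setting 51 of the 60 genes stayed past 1.5-fold and 9, all of them higher genes, did not. No sign could change and no lower gene could drop out, because the shift is smaller than the fold threshold. A mean of at least 100 left 18 higher genes, 10 of them at least 2-fold, and the interval rule left 15 higher and 13 lower, since fewer genes are counted. Spearman's rho with length, -0.5963, was -0.5044 with coding length, -0.6503 with a mean of at least 100 and -0.6486 with the principal transcript, a choice made after seeing the data. The other counts over all families stayed within 1.5 times. Leaving out single replicates was not run, because the table has no per-sample values. No paired analysis was possible because the deposited columns carry no replicates. Genes that were not listed limit every count, as do the 13 members with a mean below 100.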
